A study of Mus musculus with 8 samples.

Results

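Transcript levels of muscle mesenchymal progenitors were compared between day 2 and day 1 after injury, the step at which genes of mitosis came up. The comparison took the difference of log2(FPKM + 1), FPKM being fragments per kilobase of transcript, scaled to the mapped fragments of the library, between the day 2 and the day 1 library for every row of the deposited table that spans at least 200 bp and reaches 5 FPKM in the higher of the pair. Of 23846 rows, 23067 span 200 bp or more, and 8282 passed the FPKM minimum. All libraries came from C57BL/6J mice of the genotype Hic1CreERT2/CreERT2;Rosa26LSLtdTomato/+, in which both Hic1 alleles carry a tamoxifen-inducible Cre and red fluorescence marks cells that had Hic1 active at tamoxifen treatment, with their descendants. The mice received 2.5 mg of tamoxifen daily for 5 days at 8 weeks of age and then a washout, muscle was injured with notexin, a toxin of snake venom that kills muscle fibres, and tdTomato-positive cells were sorted from whole hindlimb muscle. Day 1 and day 2 had 1 library each, and the other 6 libraries, of quiescent cells and of days 3, 4, 5, 7 and 10, serve here as context. Whether a library pooled several mice is not stated. Since each day has a single library, the spread between animals is unknown and no p-value is given.

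A resting cell that is called to divide first grows, then copies its DNA in S phase, and only then enters mitosis. Genes for DNA replication are mostly switched on by E2F factors at the end of the growth phase, whereas many genes for mitosis are switched on later by MuvB complexes with B-Myb and FoxM1, often through a short promoter element named the cell cycle genes homology region (CHR) together with CCAAT boxes bound by NF-Y. Cyclin B with Cdk1 starts mitosis, kinetochores tie the chromosomes to the spindle, the spindle checkpoint holds the cell until all are attached, and the anaphase-promoting complex then breaks down cyclin B so that the cell can divide.

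Genes of mitosis led the increases from day 1 to day 2, and genes of neutrophil-attracting chemokines and other inflammatory signals led the decreases. A gene was called higher or lower where log2(FPKM + 1) differed by 1 or more, that is 2-fold on that scale. At day 2, 472 genes were called higher (5.7% of those compared) and 233 lower (2.81%), 705 in all (8.51%). A 4-fold difference was reached by 132 genes upward (1.59%) and 26 downward (0.314%). The median over all 8282 genes was 0.01 on the log2 scale, and the middle 95% ran from -1.04 to 1.58. Of the 472 higher genes, 238 had their highest FPKM of the whole course at day 2 and 116 at day 3. Of the 233 lower genes, 174 were highest at day 1 and 30 in the quiescent library. In bulk RNA of this kind, a change in how many cells express a gene and a change in the RNA per cell cannot be told apart.

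**Figure D1:**
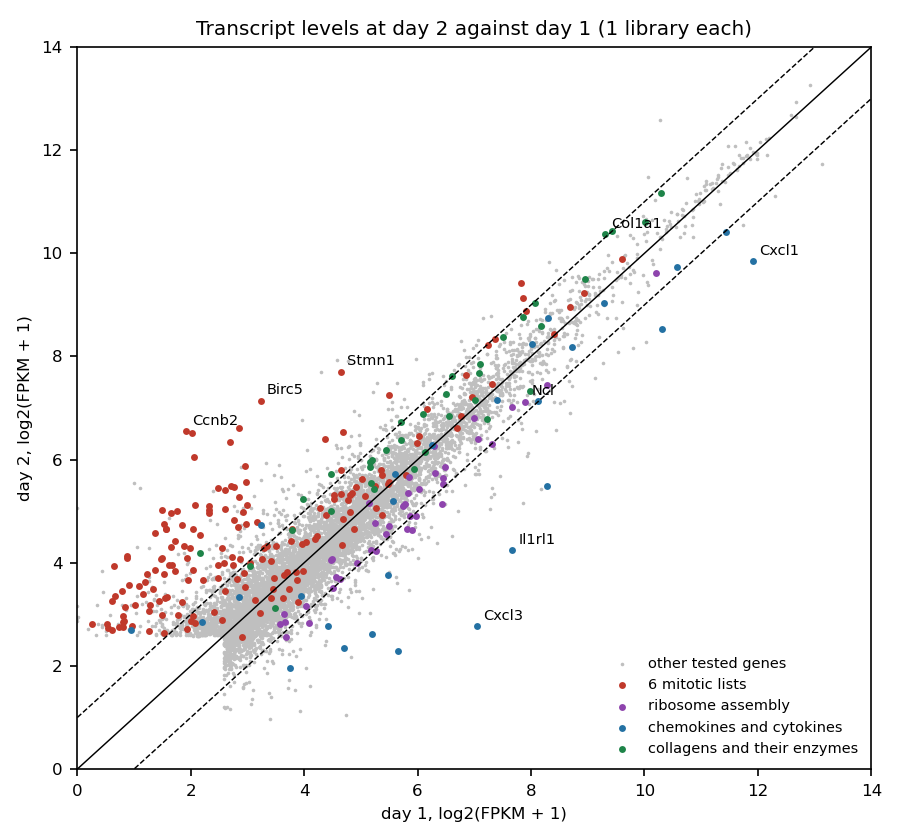
Each point is 1 of the 8282 genes compared, with log2(FPKM + 1) at day 1 on the horizontal axis and at day 2 on the vertical axis. The solid line marks equal values and the dashed lines a difference of 1 (2-fold). Members of the 6 mitotic lists (red) lie above the upper line in 98 of 171 cases, and chemokines and cytokines (blue) lie on or below the lower line in 13 of 27.

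The depth was estimated from the steps between low FPKM values as 14.3 M fragments at day 1 and 10.8 M at day 2, within a range of 10.7 to 28.5 M over the 8 libraries. A gene with a transcript of 2 kb at 5 FPKM then rests on about 132 fragments at day 1 and 99.9 at day 2, a counting error of 0.13 and 0.14 on the log2 scale. Short transcripts were shifted upward against long ones. In 5 equal bins of transcript length, from short to long, the median difference was 0.20, 0.08, 0.01, -0.07 and -0.15, and with this trend subtracted 96 mitotic genes were called, against 98 without. Calls were also made after median-ratio scaling of the libraries and after bringing all to a common FPKM sum, the 2 other scalings named where they change a call. The sorted cells carried the defining markers of mesenchymal progenitors at both days. Pdgfra was at 153 and 122 FPKM and Ly6a, which encodes Sca1, at 1682 and 1483, whereas the leukocyte gene Ptprc (0.749 and 0.741), the endothelial gene Pecam1 (0.379 and 0.495) and the satellite cell gene Pax7 (at the table's floor of 0.001 on both days) were near 0. Other markers of those cells were present, such as Lyz2 of myeloid cells (55.2 and 129), the Fc receptor subunit gene Fcer1g (17.3 and 20.5) and Eng, which endothelial and stromal cells express (45.3 and 54.6). Hic1 itself was at 20.6 FPKM at day 1 and 25.4 at day 2.

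On the log2(FPKM + 1) scale the largest increase with a measured level at both days was that of Ccnb2 (chromosome 9, 70407689 to 70421554 on mm10), which encodes cyclin B2. It was at 0.805 FPKM in the quiescent library and 2.77, 93.0, 53, 14.4, 12.5, 6.60 and 5.95 FPKM at days 1, 2, 3, 4, 5, 7 and 10. Only days 2 and 3 stood above 15 FPKM, and the quiescent and day 1 libraries were the lowest. The values at day 1 and day 2 rested on about 55 and 1387 fragments, which gives a 33.5-fold difference with a 95% counting interval (exact Clopper-Pearson) of 25.5 to 44.6. This interval and those that follow cover counting error only.

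Cdkn3, a phosphatase that acts on cyclin-dependent kinases, was at 0.992 FPKM at day 1 and 45.5 at day 2 (45.9-fold, counting interval 30.6 to 69.4). Cdca3, a protein known to promote entry to mitosis, went from 3.05 to 90.4 FPKM (29.6-fold, 23.6 to 37.4), and Cenpa, the histone H3 variant that marks centromeres, from 3.16 to 64.9 (20.5-fold, 15.7 to 26.9). Birc5, which encodes survivin of the chromosomal passenger complex (chromosome 11, 117849237 to 117855743), was at 1.42 FPKM in the quiescent library and 8.39, 140.4, 80.8, 20.4, 15.4, 8.44 and 8.87 FPKM at days 1, 2, 3, 4, 5, 7 and 10. Day 2 was its highest library and day 3 the next. Its fold from day 1 to day 2 was 16.7 (15.1 to 18.6).

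Other genes among the 12 largest increases act in mitotic exit and control. Ube2c, the ubiquitin-conjugating enzyme of the anaphase-promoting complex, went from 6.24 to 96.6 FPKM (15.5-fold, 13.3 to 18.1). Cdc20, which activates that complex, went from 5.5 to 79.7 (14.5-fold, 12.1 to 17.5), and Plk1, a kinase of mitotic entry, from 1.81 to 31.5 (17.4-fold, 13.1 to 23.4). The row 1190002F15Rik, a long non-coding RNA that RefSeq names Lockd (chromosome 6, 134929092 to 134951718), went from 1.15 FPKM at day 1 to 42.8 at day 2. Its neighbour on chromosome 6, Cdkn1b, an inhibitor of cyclin-dependent kinases, was at 17.7 and 24.9, below the 2-fold call. Hnrnpd, an RNA-binding protein gene, heads the ranking but was listed at exactly 0 at day 1 against 14.8 FPKM in quiescent cells and 32.5 at day 2. The day 1 library has 313 rows listed at exactly 0 and every other library 312, and such a 0 can be a failed estimate, so no fold is given. The last pair among these 12, Rmrp and Hist1h4c, is described below with other RNAs that carry no poly(A) tail.

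The 6 lists of mitotic genes held 200 distinct genes, of which 199 were measured (1 FPKM or more in any library), and 171 passed the minimum of 5 FPKM at day 1 or day 2. Among these 171, 98 were called higher (57.3%, against 5.7% of all genes compared) and 0 lower, and 67 of the 98 reached 4-fold. A gene below 5 FPKM at day 1 passes the minimum only by being higher at day 2, so those members had to differ in that direction. Of the 95 members at 5 FPKM or more at day 1, 28 were called higher, against 229 of all 7661 such genes (2.99%). Over all 199 measured members the median difference was 1.38, against 0.03 over the 12863 measured genes of the table. Day 2 was above day 1 in 180 of the 199, and 166 had their highest level of the 8 libraries at day 2. The 98 called members had a median level of 0.429 FPKM in quiescent cells, and of 2.50, 16.2 and 10.0 FPKM on days 1 to 3.

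Mitotic entry kinases, cyclins and their activators had a median difference of 1.54, with 15 of 22 members compared higher and 0 lower. At 5 FPKM or more at day 1 were 12 members, 5 of them called higher. Cdk1, the kinase that drives mitosis, was at 0.388 FPKM in the quiescent library and 5.05, 41.3, 22.2, 6.88, 7.49, 3.82 and 4.10 FPKM at days 1, 2, 3, 4, 5, 7 and 10. Day 2 was the highest library and 8.18-fold above day 1, and quiescent cells were the lowest. Its partners Ccnb1 (2.13 to 30.4 FPKM) and Ccna2 (6.76 to 57.9) were higher as well. The kinases Aurka (2.13 to 18.9) and Nek2 (0.726 to 9.92), the Aurora activator Tpx2 (3.99 to 31.4) and the transcription factor genes Foxm1 (2.80 to 16.0) and Mybl2, which encodes B-Myb (1.8 to 6.92), were also called higher, Mybl2 not with a pseudocount of 5. Pkmyt1, an inhibitory kinase of Cdk1, passed the call narrowly (8.75 to 18.5 FPKM, log2 difference 1.004) and not under either other scaling, with a pseudocount of 5 or with the length trend subtracted. Several other regulators of Cdk1 were not called. Wee1, a second inhibitory kinase, was at 11.3 and 9.03 FPKM, and the phosphatase genes Cdc25a at 6.44 and 4.90 and Cdc25b at 6.03 and 11.9. The phosphatase gene Cdc25c, by contrast, was called higher (0.590 to 9.20). The MuvB subunit genes Lin9 (3.31 and 2.61) and Lin54 (4.80 and 4.32) did not reach 5 FPKM on either day.

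Spindle, centrosome and kinesin genes had a median of 1.56, and 22 of 37 members compared were higher. At day 1, 18 members were at 5 FPKM or more, and 4 of these were called higher. All 11 kinesin genes that passed the minimum were higher, with 0 of them at 5 FPKM at day 1, and over the 14 measured kinesins the median level was 0.865 FPKM at day 1, 7.59 at day 2 and 5.33 at day 3. Kif2c, which takes microtubules apart at kinetochores, went from 0.829 to 16.6 FPKM, and Kif11, which pushes the spindle poles apart, from 1.34 to 12.8. Kifc1 (3.11 to 24.2) and Kifc5b (1.40 to 7.35) are near-identical copies, so the split between them is uncertain. Stmn1, a microtubule-destabilising protein and the most abundant of these genes to be called, went from 24 to 208 FPKM, and Hmmr from 0.841 to 16.0. Of 5 tubulin genes 0 were called, although all 5 lay above their day 1 value. Tubb4b was nearest to a call, at 163 and 321 FPKM (log2 difference 0.969). Tubg1 was the least abundant of the 5, at 26.4 and 36.4. Tubb5 was at 489.9 and 600.3 FPKM, and Tuba1b, whose reads cannot be cleanly told from those of Tuba1c, at 778 and 948.

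**Figure D2:**
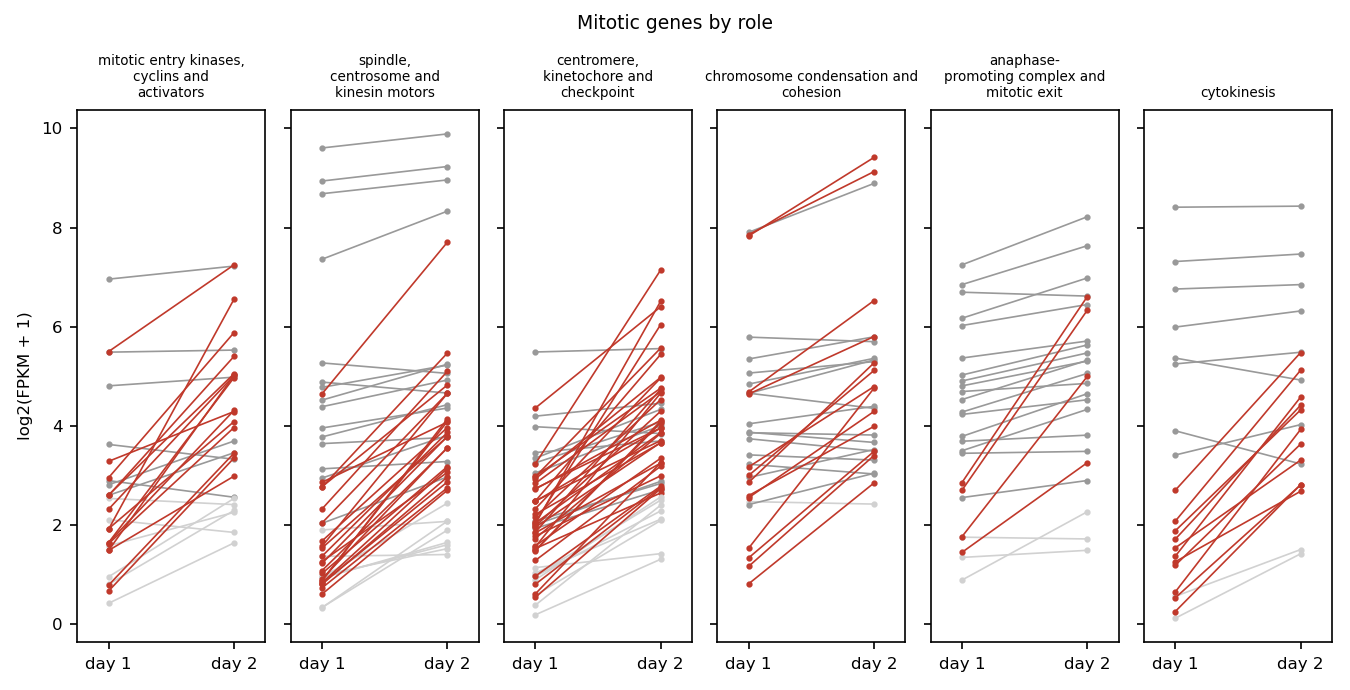
Lines join log2(FPKM + 1) at day 1 and day 2 for each measured member of the 6 mitotic lists, 1 library per day. Red lines are members called higher, dark grey lines are members compared and not called, and light grey lines are members under 5 FPKM on both days. Called members make up 33 of 43 compared in the centromere panel and 4 of 22 in the panel of the anaphase-promoting complex, and 0 members were called lower. Members under 5 FPKM at day 1 were compared only where day 2 reached 5 FPKM.

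Centromere, kinetochore and checkpoint genes had the largest share of calls of the 6 lists, 33 of 43 (76.7%), and a median of 1.71. That share includes members compared only because day 2 was high. Of the 15 at 5 FPKM or more at day 1, 8 were called higher. All 4 genes of the NDC80 complex, which grips microtubule ends, were higher, with 0 of them at 5 FPKM at day 1. Ndc80 went from 2.31 to 13.4 FPKM, Nuf2 from 1.95 to 24.3, Spc24 from 4.59 to 42.5 and Spc25 from 3.49 to 22.1. The 4 genes of the chromosomal passenger complex, which corrects faulty attachments, were higher too, with Aurkb at 4.02 and 30.3, Cdca8 (borealin) at 6.85 and 46.5 and Incenp at 6.16 and 24.8. Of these 4 genes, 3 were at 5 FPKM or more at day 1. Of the constitutive centromere proteins, which sit at the centromere all through the cycle, 9 of 11 were higher, with a median of 1.31. Only 4 of the 11 were at 5 FPKM or more at day 1, and 3 of these were called higher. The calls of Cenpi, Cenpk, Cenpl and Cenpq were lost with a pseudocount of 5.

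Among 6 core genes of the spindle checkpoint 4 were called higher. These were Bub1 (0.525 to 8.56 FPKM), Bub1b (1.8 to 16.1), Ttk (1.44 to 8.10) and Mad2l1 (6.62 to 30.5). Bub1, Bub1b and Ttk were compared only because day 2 was high. Of the 3 genes at 5 FPKM or more at day 1, 1 was called higher, Mad2l1. The other two, Bub3 (44.0 and 46.1) and Mad1l1 (17.3 and 21), were above 15 FPKM already at day 1 and stayed there. Zwint, a kinetochore scaffold gene, was at 14.8 and 13.4, and Mis12 at 10.0 and 12.

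Chromosome condensation and cohesion genes were divided by complex, with a list median of 0.68 and 13 of 28 higher. Members at 5 FPKM or more at day 1 numbered 22, and 8 of these were called higher. Top2a, the topoisomerase that untangles sister chromosomes, went from 6.25 to 37.6 FPKM, and Mki67, which coats mitotic chromosomes and is a common marker of cycling cells, from 1.89 to 26.1. Condensin genes were called in 4 of 7 cases, and in 3 of the 5 at 5 FPKM or more at day 1. Those of condensin I, Ncapg (1.24 to 9.57), Ncapd2 (7.00 to 33.7) and Ncaph (5.03 to 14.9, not with a pseudocount of 5), were called, and of the shared subunits Smc4 was (8.01 to 26.7) and Smc2 was not (6.77 and 10.5). Those particular to condensin II, Ncapg2 (4.32 and 7.24), Ncapd3 (4.55 and 4.36) and Ncaph2 (27.7 and 40.1), were not called, Ncapd3 lying under the minimum. Of 5 cohesin genes, whose products hold sister chromosomes together, 0 were called and the median was -0.21. Smc3 was at 24.3 and 19.4 FPKM, whereas the cohesion factors Esco2 (0.757 to 6.20, not with a pseudocount of 5) and Cdca5, or sororin (1.53 to 10.2), were called higher. The chromatin proteins H2afz (227 to 682), Hmgb2 (24.7 to 91.3) and Hmgn2 (231 to 559) were higher at much larger levels.

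The anaphase-promoting complex and mitotic exit genes gave the smallest share of calls of the 6 lists, 4 of 22, with a median of 0.61. Most members, 19, were at 5 FPKM or more at day 1, and 2 of these were called higher. Of the 13 core subunit genes 0 were called, although all 13 lay above their day 1 value (median 0.57, from 0.04 to 0.83). Their median level was 16.1 FPKM in quiescent cells, 22.1 at day 1 and 38.6 at day 2. Called higher were Cdc20 and Ube2c (above), the inhibitor gene Fbxo5, known as Emi1 (1.73 to 8.57), and Fam64a, known as Pimreg (2.40 to 31.0). The other activator, Fzr1, which takes over as cells leave mitosis, was at 12.8 and 24.1 FPKM, and Pttg1, which encodes securin, at 40.3 and 51.4.

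Cytokinesis genes had a median of 1.42, with 11 of 19 higher. Only 9 of them were at 5 FPKM or more at day 1, and 1 of these was called higher, against 2.99% of all such genes. Kif23, a motor of the central spindle, was at 0.256 FPKM in the quiescent library and 0.569, 14.2, 11, 2.77, 2.44, 1.36 and 2.11 FPKM at days 1, 2, 3, 4, 5, 7 and 10. It was under 1 FPKM in the quiescent and day 1 libraries and stood highest at day 2. Its partner Racgap1 went from 5.5 to 43.6 FPKM, the bundling protein Prc1 from 3.22 to 33.9, the furrow scaffold Anln from 2.28 to 20.4 and Ect2, an exchange factor that acts at the furrow, from 1.91 to 8.92. The GTPase gene Rhoa (339 and 345) and Myh9, the heavy chain of non-muscle myosin (62.7 and 78.8), were among the list's members not called.

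The promoters of the called mitotic genes were searched for the letters of the CHR and of the CCAAT box in RefSeq windows on GRCm38.p6 from 250 bases before to 50 after the gene start, which 6665 of 8267 distinct symbols compared had. Windows of 6 called genes are shown because they carry both elements. Each runs from 130 bases before the RefSeq start to 30 after it, 5′ to 3′ on the gene's own strand, and capitals mark CHR letters (TTTGAA or TTCGAA, either strand) and CCAAT boxes (CCAAT, either strand).
Ccnb2: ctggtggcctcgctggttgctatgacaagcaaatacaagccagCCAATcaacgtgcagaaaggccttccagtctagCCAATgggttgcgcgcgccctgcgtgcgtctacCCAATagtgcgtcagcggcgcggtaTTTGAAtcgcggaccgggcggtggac
Cenpa: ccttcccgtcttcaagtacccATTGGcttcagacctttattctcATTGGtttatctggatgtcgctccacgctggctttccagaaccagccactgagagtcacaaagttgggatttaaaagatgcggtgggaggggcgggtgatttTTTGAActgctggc
Cdc20: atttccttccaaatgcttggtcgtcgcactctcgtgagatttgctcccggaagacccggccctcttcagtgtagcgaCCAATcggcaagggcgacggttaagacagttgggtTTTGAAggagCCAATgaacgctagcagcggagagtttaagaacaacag
Ube2c: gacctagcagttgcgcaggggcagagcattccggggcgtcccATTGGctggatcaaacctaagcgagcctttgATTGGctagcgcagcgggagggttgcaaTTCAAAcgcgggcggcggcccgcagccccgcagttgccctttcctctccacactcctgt
Cdk1: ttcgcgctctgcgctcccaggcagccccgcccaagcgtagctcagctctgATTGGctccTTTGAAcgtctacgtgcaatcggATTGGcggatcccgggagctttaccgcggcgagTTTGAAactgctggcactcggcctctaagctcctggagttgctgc
Prc1: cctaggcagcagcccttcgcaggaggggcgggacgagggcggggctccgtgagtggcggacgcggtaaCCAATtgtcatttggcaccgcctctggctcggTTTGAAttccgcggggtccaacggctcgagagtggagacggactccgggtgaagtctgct
These windows lie at chr9:70421525-70421684, minus strand for Ccnb2, chr5:30666756-30666915, plus strand for Cenpa, chr4:118437314-118437473, minus strand for Cdc20, chr2:164769799-164769958, plus strand for Ube2c, chr10:69352883-69353042, minus strand for Cdk1 and chr7:80294346-80294505, plus strand for Prc1.

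CHR letters stood in 54 of 78 windows of mitotic genes called higher (69.2%), in 19 of 64 of mitotic genes compared and not called (29.7%) and in 13.8% of all genes compared. The share over all 27025 RefSeq promoter windows was 19.4%. Genes called higher that stand in no mitotic list had them in 17.6% and genes called lower in 11.3%. Both elements together stood in 57.7% of called mitotic genes and 6.05% of all genes compared. The CCAAT box alone is common. It was found in 73.1% of the called mitotic genes and in 39.3% of all compared (37.9% of all RefSeq windows).

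Most CHR matches lay close to the start. A CHR beginning between 60 bases before the start and the end of the window was found in 45 of 78 called mitotic genes and in 3.77% of all compared. In Ccnb2, for example, CCAAT boxes begin 87, 54 and 21 bases before the start, and a CHR begins 4 bases after it. Birc5 and Ccnb1 hold no CHR letters in their windows although both were called. A match of letters describes the sequence and is not a measured binding site, and the mitotic lists were chosen by function, so the shares describe these genes only.

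**Figure D3:**
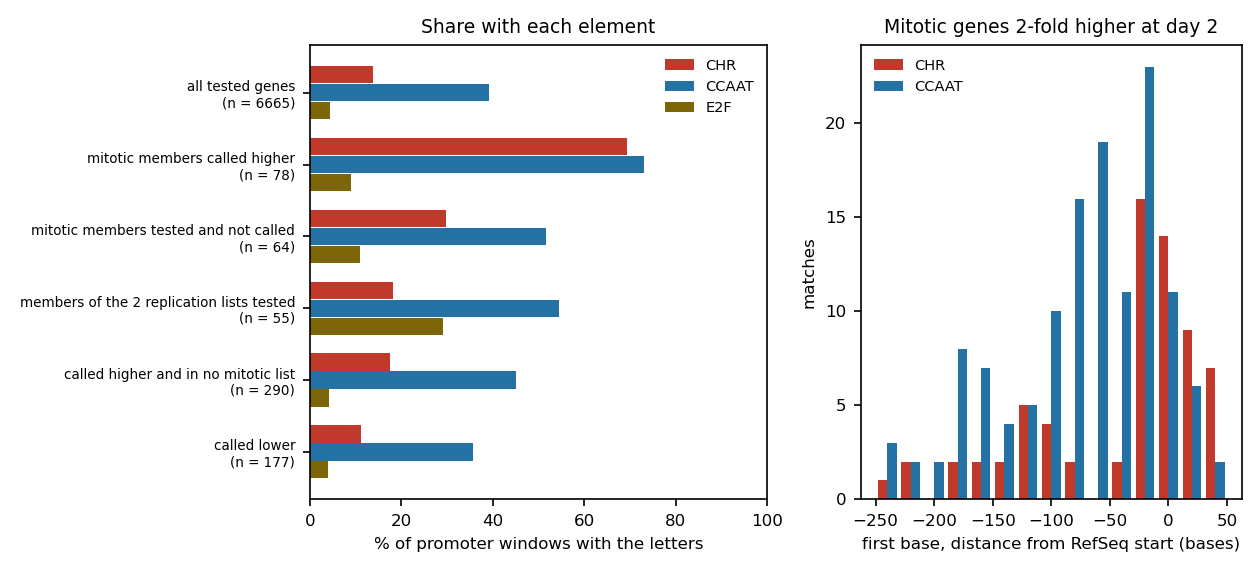
The bars give the percentage of RefSeq promoter windows that hold CHR, CCAAT or E2F letters, by group of genes, with the number of windows in each group. The histogram counts where matches begin, in bases from the RefSeq start, in mitotic genes called higher. CHR letters are in 69.2% of those genes and 13.8% of all genes compared, and in 45 of the 78 a CHR begins within 60 bases before the start or after it.

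Replication genes followed another course. Their large step had come by day 1. From day 1 to day 2 the genes that load and fire replication origins went both ways, 19 of 31 measured below day 1 and 12 above. For the licensing, helicase and firing list the median was -0.16, with 1 of 27 called higher and 0 lower. Its median difference between day 1 and the quiescent library, which shares the day 1 library with this comparison, was 1.96. Mcm5, of the replicative helicase, was at 1.04 FPKM in the quiescent library and 48.6, 41.6, 13, 4.17, 2.74, 2.27 and 2.77 FPKM at days 1, 2, 3, 4, 5, 7 and 10. Days 1 and 2 were its highest libraries and differed little. All 6 genes of the helicase ring (Mcm2 to Mcm7) were below their day 1 value at day 2, with a median difference of -0.42, and median levels of 51.8, 37.5 and 13.8 FPKM at days 1, 2 and 3, and 0 were called. Mcm2 was closest to a call, at 43.0 and 21 FPKM, and was called lower under both other scalings and with a pseudocount of 0.1. Dbf4, the activator of the kinase that fires origins, was the 1 called gene (6.24 to 17.5), and Gmnn, which encodes the licensing inhibitor geminin, was at 22.1 and 42.6.

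DNA synthesis, nucleotide and chromatin assembly genes had a median of 0.16. Of 38 compared, 5 were higher (13.2%) and 0 lower, against 5.7% higher and 2.81% lower over all genes. The polymerase clamp Pcna was at 44.0 FPKM in the quiescent library and 267, 242, 108, 55.1, 66.2, 42 and 44.9 FPKM at days 1, 2, 3, 4, 5, 7 and 10. Its levels at days 1 and 2 were the highest and close to each other. Genes of nucleotide supply made 3 of the 5 calls. Rrm2, the regulated subunit of ribonucleotide reductase, was at 15.5, 71.9 and 22.0 FPKM on days 1 to 3. Thymidine kinase Tk1 was at 14.6, 109 and 61.4 on those days, and thymidylate synthase Tyms, whose call was lost with a pseudocount of 5, at 10.8, 25.2 and 16.9. The other two called genes were the histone chaperone Asf1b (6.39 to 25.7) and 2810417H13Rik, the PCNA-binding factor also known as Pclaf (6.35 to 57.3).

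For contrast with the mitotic windows, the window of Mcm6, a helicase gene at 75.6 and 61.3 FPKM, is shown with CCAAT boxes and E2F letters (TTTCCCGC, TTTCGCGC, TTTGCCGC or TTTGGCGC, either strand) in capitals. It holds no CHR letters, and at its first capitals a pair of E2F matches overlap (chr1:128359676-128359835, minus strand).
Mcm6: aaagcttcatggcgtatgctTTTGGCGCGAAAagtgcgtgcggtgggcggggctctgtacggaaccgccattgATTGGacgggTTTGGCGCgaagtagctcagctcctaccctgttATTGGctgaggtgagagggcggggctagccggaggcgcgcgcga
E2F letters stood in 16 of 55 windows of the replication lists (29.1%), in 8.97% of called mitotic genes and in 4.50% of all compared, and CHR letters in 18.2% of the replication windows.

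**Figure D4:**
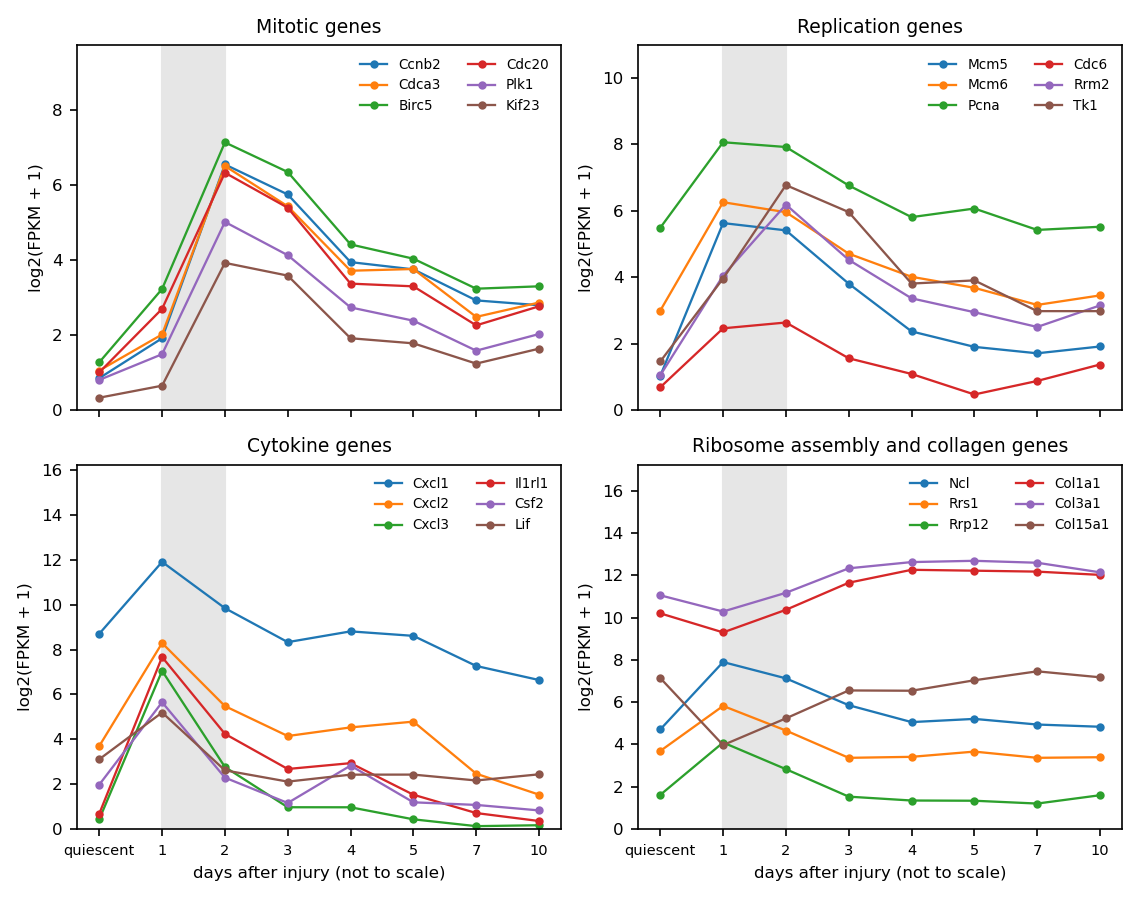
Each panel shows log2(FPKM + 1) of 6 genes in the 8 libraries (1 library per time point), with the step from day 1 to day 2 shaded. Mitotic genes are highest at day 2, whereas Mcm5, Mcm6 and Pcna are highest at day 1, and Rrm2 and Tk1 at day 2. Cytokine and ribosome assembly genes are highest at day 1, and the collagen genes are lowest at day 1.

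Histone genes of the clusters, whose products package newly copied DNA, were higher at day 2 in nearly every row that could be compared. Of 57 measured, 25 passed the minimum and 24 were called higher, but 24 of the 25 were under 5 FPKM at day 1 and had to be higher at day 2. Over all 57 the median difference was 1.87, and 46 were highest at day 2. Their summed level was 48.2, 338, 202 and 132 FPKM on days 1 to 4. Hist1h4c went from 0.357 to 13.3 FPKM (37.2-fold). Its row spans only 312 bp, against 820 for the reference transcript, so no fragment numbers or counting interval are given.

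Most messages of these genes end in a stem-loop and carry no poly(A) tail, and the libraries were made from polyA RNA. Some other RNAs without such a tail were also higher at day 2. Rows under 200 bp, left out of the comparison, went both ways. Of 57 that reached 5 FPKM at day 1 or day 2, 17 were 2-fold higher and 13 lower. Most of these passed the minimum only through the library where they were high. Of the 43 at 5 FPKM or more at day 1, 3 were higher, against 2.99% of all such genes compared. Of the 47 at that level at day 2, 3 were lower, against 2.21%. Rmrp, the RNA of the RNase MRP enzyme, was at 20.7 FPKM in the quiescent library and 18.7, 206, 38.8, 149.6, 24, 26.1 and 19.3 FPKM at days 1, 2, 3, 4, 5, 7 and 10, with days 2 and 4 standing apart. Rpph1, the RNA of RNase P, was at 22.9, 243, 47.4 and 165 FPKM on days 1 to 4, and the ribosomal precursor row Rn45s at 8.39, 47.4, 13.5 and 17.9. The part of carried-over RNA without a tail in the histone values was not tested. The near-identical sequences of many histone genes also make the split between single rows uncertain.

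Genes of the growth phase were called at about the share of all genes. In the list of G1 cyclins, E2F and pocket proteins 1 of 17 was higher and 1 lower, against 5.7% and 2.81% of all genes, and the median was -0.10. Cyclin D2 (Ccnd2) was lower (17.6 to 7.89 FPKM), though not with the length trend subtracted or a pseudocount of 5, while Ccnd1 (59.5 and 33.7) and Myc (128 and 81.4) lay below day 1 without reaching the call. Mxd3, a partner of Max, was called higher (4.28 to 41.0), and cyclin E1 (Ccne1) was at 4.76 and 10.0. Of 21 inhibitor and p53 target genes compared 5 were higher and 2 lower. Besides Cdkn3 the higher ones included 2 inhibitors of Cdk4 and Cdk6, Cdkn2c (6.38 to 30.1) and Cdkn2d (7.38 to 32.6), whereas the transcription factor gene Klf4 was lower (271 to 93.5). Cdkn1a, the p53-responsive inhibitor p21, was at 50.2 and 27.9.

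Among chemokine and cytokine genes, which call leukocytes into injured tissue, many fell from day 1. Of 27 compared, 13 were lower (48.1%) and 2 higher, against 2.81% lower and 5.7% higher among all genes, and the median was -0.63. A gene below 5 FPKM at day 2 is compared only because day 1 was high. At 5 FPKM or more at day 2 were 24 members, and 10 of these were lower, against 2.21% of all such genes. Cxcl3, which draws neutrophils (chromosome 5, 90786103 to 90788090), was at 0.356 FPKM in the quiescent library and 132, 5.81, 0.963, 0.961, 0.352, 0.0947 and 0.126 FPKM at days 1, 2, 3, 4, 5, 7 and 10. It stood above 6 FPKM at day 1 alone, and the fall to day 2 was 22.7-fold (counting interval 17.4 to 30.5). Il1rl1, the receptor of interleukin 33, was at 0.608 FPKM in the quiescent library and 202, 17.9, 5.40, 6.66, 1.89, 0.641 and 0.283 FPKM at days 1, 2, 3, 4, 5, 7 and 10. Day 1 was more than 10 times any other library. Of the related chemokines Cxcl2 fell from 312 to 43.7 FPKM, Cxcl1 from 3840.3 to 919 and Cxcl5 from 1269 to 369. The monocyte chemokine gene Ccl2 was lower (2780.1 to 1364) and Ccl7 was called only with the length trend subtracted (1523 and 855).

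The cytokine genes Csf2, which encodes GM-CSF (49.3 to 3.90 FPKM, 12.6-fold, 8.69 to 19.7), Lif (35.6 to 5.14, 6.93-fold, 6.02 to 8.02) and Il1b (25 to 4.08) were lower, as was Il6 (279 to 139), which lies just past the threshold with a log2 difference of -1.001 and is not called with a pseudocount of 5. Some chemokine genes were not called. Cxcl12, which retains stem and immune cells in tissue, was at 315 and 431, and the eosinophil chemokine gene Ccl11 at 259 and 302. Called higher were Ccl9 (8.39 to 25.4) and Cx3cl1 (0.925 to 5.47, not with a pseudocount of 5).

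Feedback genes of NF-kB and acute phase genes had a median of -0.70, with 10 of 26 lower and 1 higher. Over all genes 2.81% were lower and 5.7% higher. Of the 24 members at 5 FPKM or more at day 2, 8 were lower, against 2.21% of all such genes. Nfkbia, the inhibitor that NF-kB itself induces, fell from 619 to 232 FPKM, and Tnfaip3, another brake on the pathway, from 54.0 to 18.9. The prostaglandin synthase gene Ptgs2 (COX-2) fell from 232 to 34.5 (6.72-fold, 6.38 to 7.08), and the prostaglandin transporter Slco2a1 from 56.9 to 10.0 (5.66-fold, 5.25 to 6.12). Saa1, an acute phase protein, fell from 14.3 to 1.19, on only about 94 and 6 fragments. The factors themselves were less altered, with Rela at 31.2 and 30.3 and Nfkb1 at 36.1 and 23.7. Vcam1, an adhesion molecule, was the 1 gene called higher (20.5 to 43.0, not called on a common FPKM sum or with a pseudocount of 5).

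The windows of Cxcl1 and Cxcl2 are shown because Cxcl1 lost the most FPKM of the chemokine genes called lower and Cxcl2 is its neighbour. Capitals mark the NF-kB letters, GGGNN followed directly by TTTCC on either strand, where N is any base.
Cxcl1: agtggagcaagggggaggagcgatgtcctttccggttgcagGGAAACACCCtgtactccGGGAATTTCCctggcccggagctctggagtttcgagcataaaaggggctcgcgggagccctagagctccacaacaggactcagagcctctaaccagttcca
Cxcl2: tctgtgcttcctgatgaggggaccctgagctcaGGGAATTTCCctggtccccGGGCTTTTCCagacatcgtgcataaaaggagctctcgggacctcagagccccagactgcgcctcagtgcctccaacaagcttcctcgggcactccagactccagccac
They lie at chr5:90891115-90891274, plus strand for Cxcl1 and chr5:90903769-90903928, plus strand for Cxcl2. These letters stood in 6 of 18 windows of the chemokine and cytokine genes compared, in 4 of the 9 called lower, and in 1.61% of all genes compared.

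Immediate early genes, which answer stress and growth signals within minutes, were called lower in 12 of 29 cases and higher in 0. Over all genes 2.81% were lower and 5.7% higher. The list's median was -0.61. Of the 25 members at 5 FPKM or more at day 2, 8 were lower, against 2.21% of all such genes. Their median difference between day 1 and the quiescent library was -0.11. Of the 32 measured, 16 were highest in the quiescent library and 12 at day 1. Fosl1 fell from 13.2 to 1.88 FPKM and Nr4a2 from 15.5 to 2.91, and Ier3 from 411 to 119. Klf2 (119 and 107), Klf6 (90.9 and 88.5) and Egr1 (448 and 390.3) were near their day 1 levels. Among 32 genes of growth factors, their receptors and antagonists 9 were lower and 2 higher, against 2.81% lower and 5.7% higher over all genes. At 5 FPKM or more at day 2 were 26 of them, and 3 of these were lower, against 2.21% of all such genes. Vegfa, the vessel growth factor gene, fell from 46.1 to 17.3 FPKM. The Wnt modulator Sfrp2 went the other way, at 26.2, 241 and 479 FPKM on days 1 to 3, and was 9.20-fold higher at day 2.

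Some interferon-induced genes, which defend cells against viruses, were lower at day 2 than on either side. Of 24 compared, 8 were lower and 0 higher, against 2.81% lower and 5.7% higher over all genes. Of the 21 at 5 FPKM or more at day 2, 6 were lower, against 2.21% of all such genes. The list's median was -0.68, and its median from day 2 to day 3, which shares the day 2 library, was 1.45. Ifit3, an antiviral protein, was at 10.6 FPKM in quiescent cells and 34.7, 7.14 and 83.6 FPKM on days 1 to 3. Isg15, a ubiquitin-like modifier, was at 13.7, 157, 42.7 and 257, and the interferon regulator Irf7 at 16.3, 58.7, 18.3 and 68.5. For each of the 3 genes day 2 lay below both its neighbours. The immunoproteasome gene Psmb8 (41.6 and 44.9) was not called.

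Windows of Ifit1 (19.7 to 4.27 FPKM) and Ifit3 carry the letters of the interferon-stimulated response element, GAAANN followed directly by GAAA on either strand, shown in capitals.
Ifit1: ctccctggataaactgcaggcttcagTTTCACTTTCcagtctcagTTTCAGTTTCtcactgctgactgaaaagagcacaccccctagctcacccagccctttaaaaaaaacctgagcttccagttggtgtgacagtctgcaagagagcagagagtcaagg
Ifit3: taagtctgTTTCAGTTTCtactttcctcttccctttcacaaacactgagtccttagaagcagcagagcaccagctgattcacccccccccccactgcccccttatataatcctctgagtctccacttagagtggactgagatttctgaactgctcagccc
They lie at chr19:34640759-34640918, plus strand for Ifit1 and chr19:34583399-34583558, plus strand for Ifit3. The letters stood in 11 of 22 windows of the interferon list, in 4 of 7 called lower and in 3.05% of all genes compared.

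Markers of leukocytes were present at both days. Of the 20 macrophage and monocyte markers, 11 were compared, and 1 was higher (9.09%) and 0 lower, near the 5.7% and 2.81% of all genes. The summed level of the markers was 292, 372 and 1052 FPKM on days 1 to 3. Lyz2, a lysozyme gene of myeloid cells, was the called one (55.2 to 129), Cd14 was at 21.2 and 10.2, and Csf1r, which defines macrophages, at 2.00 and 3.04. Neutrophil markers summed to 47.9 and 28.2 FPKM, and 6 of the 8 measured lay above day 1. S100a8 (26.4 to 12.3) and S100a9 (17.4 to 7.25) were called lower and Mmp9, a gelatinase gene, higher (1.99 to 5.20), with the receptor genes Csf3r and Cxcr2 below 1 FPKM on both days. Complement genes, which fibroblasts and macrophages both express, were lower in 4 of 14 (28.6%) and higher in 1 (7.14%). Over all genes 2.81% were lower and 5.7% higher, so the share higher was near that of all genes. C3 fell from 406 to 182 (not called with the length trend subtracted), while the macrophage complement gene C1qb was at 8.09 and 14.5. The part of leukocyte RNA in the inflammatory results was not tested.

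Ribosome assembly genes, which act mainly in the nucleolus, lay below day 1 almost throughout. Of 40 compared, 39 lay below their day 1 value, 9 were called lower and 0 higher, and the median was -0.79. With a pseudocount of 5 the count lower among the 40 was 3. Of the 39 at 5 FPKM or more at day 2, 8 were lower, against 2.21% of all such genes. Ncl, which encodes nucleolin, was at 237, 139 and 56.9 FPKM on days 1 to 3, and the helicase gene Ddx21 at 84.9, 34.1 and 13.3. The median difference of the list between day 1 and quiescent was 2.21. Cytosolic ribosomal protein genes had 0 of 47 called and a median of 0.10 (below 0 once the length trend is subtracted). Chaperones had 0 of 29 called and a median of -0.36, with the mitochondrial chaperone Hspd1 at 340.0 and 215. Hmga1, an architectural chromatin protein abundant in growing cells, fell from 289 to 42 FPKM (6.88-fold, 6.40 to 7.39). The mouse genome holds near-identical copies of Hmga1, which makes its value uncertain.

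Cholesterol synthesis, which supplies growing membranes, had 24% of its genes called higher, against 5.7% of all genes. Of 25 compared, 6 were higher and 0 lower, with a median of 0.63, and 21 of the 26 were highest at day 2. With a pseudocount of 5, 3 were called higher. Fdps, which makes farnesyl diphosphate, was at 29.3 FPKM in the quiescent library and 125, 285, 59.96, 29.95, 28.9, 44.7 and 31.3 FPKM at days 1, 2, 3, 4, 5, 7 and 10. Day 2 was its highest library. Phosphomevalonate kinase (Pmvk) went from 12.2 to 41.9. Respiratory chain genes had a median of 0.20 and 0 of 47 called. In the glycolysis and hypoxia list 4 of 24 were lower (16.7%), against 2.81% of all genes. These were Hk2, the inducible hexokinase (49.0 to 11.2), Vegfa, Adm (134 to 51.9) and the lactate transporter Slc16a1 (38.5 to 18, not called with the length trend subtracted or a pseudocount of 5), while the core enzyme genes Pkm (458 and 613) and Eno1 (329.8 and 460.0) were not called. Serine, one-carbon and ATF4 target genes had a median of -0.29, with Psat1 at 80.3 and 46.2 and 1 of 19 called. Genes of folding and secretion in the endoplasmic reticulum had a median of 0.23, and Kdelr3, a retrieval receptor, was the 1 called (45.8 to 125).

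Collagens and their modifying enzymes build the fibres of the matrix. Of 35 compared, 7 were higher (20%) and 0 lower, against 5.7% higher and 2.81% lower over all genes, with a median of 0.73. Under either other scaling 4 were called higher, and with the length trend subtracted 12. Of the 34 at 5 FPKM or more at day 1, 6 were higher, against 2.99% of all such genes. Col1a1, the main fibrillar collagen gene (chromosome 11, 94936270 to 94951856), was at 1174 FPKM in the quiescent library and 628, 1319, 3205, 4894, 4756, 4612 and 4146 FPKM at days 1, 2, 3, 4, 5, 7 and 10. Day 1 was the lowest library and days 4 to 10 the highest. Col1a2 went from 685 to 1380.0 FPKM, Col5a1 from 96.2 to 195 (both uncalled under either other scaling) and the prolyl hydroxylase gene P4ha3 from 3.48 to 17.3. The basement membrane collagen gene Col4a1 was not called (252 and 161).

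Matrix glycoproteins moved both ways, 11 higher and 3 lower of 41, against 5.7% higher and 2.81% lower over all genes. With the length trend subtracted 7 were called higher. Higher were Wisp2 (37.7 to 177), the cartilage matrix gene Cilp (11.1 to 49.6), Aspn (43.5 to 125), Postn (111 to 278) and elastin, Eln (30.7 to 68.7). Lower were Thbs1, which activates latent TGF-beta (163 to 39.2), the lubricant gene Prg4 (887 to 285) and the hyaluronan synthase gene Has1 (559.8 to 191). Among proteases and their inhibitors 5 of 29 were lower (17.2%) and 2 higher (6.90%), the latter near the share over all genes. Stromelysin Mmp3 fell from 242 to 66.0 and the urokinase receptor Plaur from 71.4 to 21.5. Serpinb2, an inhibitor of urokinase, fell from 25.8 to 1.08 FPKM (23.9-fold, 15.3 to 37.5). The long non-coding RNA row Gm12505 is also among the 12 largest decreases (16.3 to 2.04 FPKM, 7.99-fold, 4.64 to 15.8). Acta2, the smooth muscle actin of myofibroblasts and mural cells, went from 10.8 to 58.7.

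**Figure D5:**
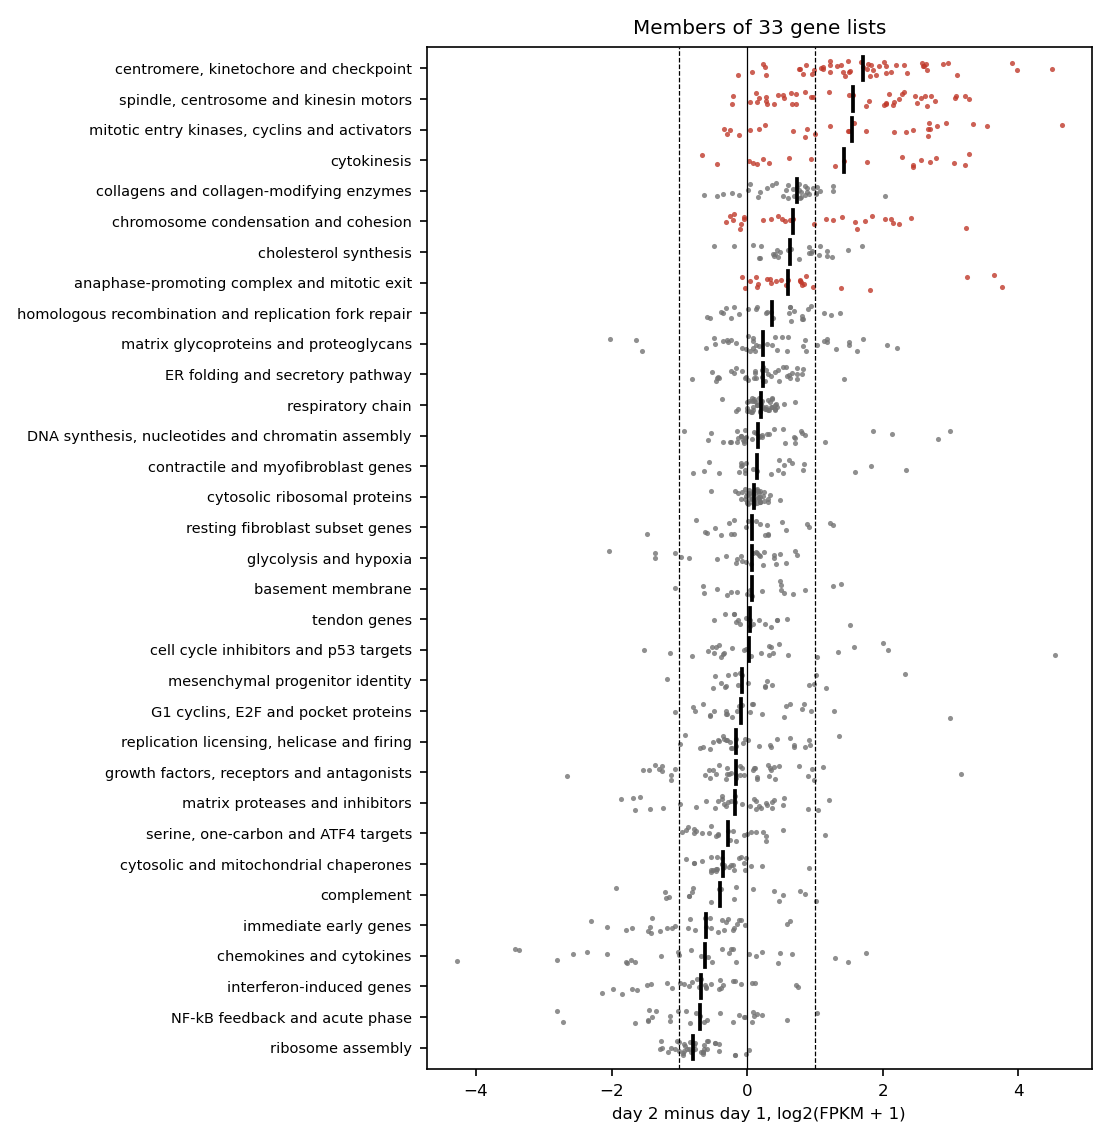
Each point is a measured member of 1 of the 33 gene lists, placed by its difference of log2(FPKM + 1) between day 2 and day 1, and the black bar is the median of the list. Dashed lines mark a difference of 1 (2-fold) each way, and the 6 mitotic lists are red. Medians run from 1.71 for centromere, kinetochore and checkpoint genes to -0.79 for ribosome assembly genes.

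Genes of progenitor identity had a median of -0.07 that turns positive once the length trend is subtracted. Of 20, 3 were higher (15%, against 5.7% of all genes) and 1 lower. S100a4, a calcium-binding protein of motile fibroblasts, was at 364 FPKM in the quiescent library and 1235, 6179, 3520.3, 818, 436, 276 and 251 FPKM at days 1, 2, 3, 4, 5, 7 and 10, its highest level falling at day 2. Thy1 went from 86.4 to 195 FPKM, and Gsn, which severs actin, was the gene called lower (3419 to 1498). For genes of resting fibroblast subsets, 14 of 24 were highest in the quiescent library. Their median level was 148 FPKM in quiescent cells, 47.2 at day 1 and 35.7 at day 2, while the median difference from day 1 to day 2 was 0.08 (below 0 on a common FPKM sum or with the length trend subtracted), with 2 of 24 higher and 1 lower. Penk, the enkephalin precursor gene, was the lower one (64.1 to 22.5). Basement membrane, contractile and tendon genes had 2 of 16, 3 of 21 and 1 of 9 members called higher, and 1, 0 and 0 lower, against 5.7% higher and 2.81% lower over all genes.

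Other cell types left few markers above the minimum. Of 16 pericyte and mural markers 6 were compared and 3 were higher, namely Acta2, Des (6.28 to 22.0 FPKM) and Ndufa4l2 (5.59 to 19.1), while the pericyte gene Rgs5 was at 0.981 and 1.47. Satellite cell and myoblast markers called higher were Des again and Vcam1, while Myod1 was at 0.207 and 0.551 and the fusion gene Tmem8c below 0.1 on both days. Of 14 endothelial and 14 Schwann cell markers 2 and 2 were compared and 0 called. For muscle fibre markers 1 of 19 was compared and 0 called, 0 of 14 lymphocyte markers reached the minimum, and among adipocyte markers the lipase gene Lpl was called higher (18.6 to 44.7) with Adipoq at the floor of 0.001 on both days. Haemoglobin rows, whose near-identical copies make the split uncertain, summed with other red cell markers to 93.8 FPKM at day 1 and 46.3 at day 2.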

How the data were processed

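Poly(A) RNA of sorted cells was sequenced after a stranded library preparation, per the labels' protocols, with 8 libraries in all and 1 per time point. Reads were handled with bcl2fastq, TopHat2, Bowtie2 and Cufflinks on the mm10 genome, per the submitters' processing notes, with no versions given in the sources used here. The authors deposited FPKM per gene row. The annotation, the treatment of reads with several matches and the use of strand could not be learned from the labels or the processing notes. Symbols are those of the deposited table, and rows that share a symbol were kept apart. Folds are ratios of these deposited FPKM values, and differences are of log2(FPKM + 1).

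Depth was estimated from FPKM steps of single-transcript genes (GENCODE M21 lengths less 150 bp), where 74.5 to 78.9% of low values lay within 0.15 of a whole fragment, against 30% by chance. Fragment numbers and 95% intervals rest on this estimate. Calls used a difference of 1 and 5 FPKM in the higher library. Python 3.11.15, pandas 2.3.3, numpy 2.4.6, scipy 1.17.1 and matplotlib 3.10.9 were used, and the calling step was tested on simulated data. The comparison, the gene lists and the markers were chosen with earlier results of these data known. Genes named are the 12 largest increases and decreases at 10 FPKM or more, a fixed set, members of the mitotic and replication lists, and the 2 largest increases and decreases of each list. Others named, and the subgroups by complex, were chosen after their values were seen. A few genes that these rules name are not reported here. Alternatives changed the pseudocount, the filter, the scaling, the row span, shared symbols and the length trend. Leaving out rows at the floor was added after seeing the data. Of the listed symbols 9 had no row, and 0 columns belonged to samples outside the series.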

Additional observations from a re-analysis of the deposited data

How the results depend on the processing

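A pseudocount of 5 in place of 1 lowered the counts to 276 genes higher and 132 lower at day 2, and a minimum of 20 FPKM to 211 higher and 142 lower, with 42 mitotic genes called. Fewer genes are compared under the latter (3999). Under every other alternative the counts stayed within 1.5 times the reported ones, and the mitotic count ran from 79 (pseudocount of 5) to 113 (minimum of 1 FPKM). Scaling to a common FPKM sum gave 370 higher and 255 lower, 59.2% of the calls being higher against 67.0% as reported. No called gene of the lists changed direction, nor did a list median of 0.5 or more in size. The size of low genes' differences depends on the pseudocount, and list medians ran from 0.79 to 2.24 for mitotic entry, 0.89 to 2.21 for spindle, 0.94 to 2.09 for centromere and 0.70 to 2.17 for cytokinesis genes, from a pseudocount of 5 to 0.1. Medians near 0 changed sign for cell cycle inhibitors, cytosolic ribosomal proteins, glycolysis, progenitor identity, resting fibroblast, neutrophil and muscle fibre genes, the cause of which was not tested. Over the genes of the lists compared, the calls of 57 were lost with a pseudocount of 5, of 7 and 10 with median-ratio and common-sum scaling, and of 16 with the length trend subtracted, while 16, 3, 4 and 14 were gained with a pseudocount of 0.1, these scalings and the trend. No paired analysis was possible because each time point has 1 library and the labels carry no replicate numbers. For the same reason no library could be left out. A gene near 5 FPKM rests on about 132 and 99.9 fragments per 2 kb at days 1 and 2, and shorter transcripts on fewer.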

Other observations

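Several genes outside the lists differed between day 1 and day 2, and the ones given here were chosen after their values were seen. Pdpn, which encodes the membrane glycoprotein podoplanin of stromal and lymphatic cells, was at 111 FPKM in quiescent cells and 1044, 312 and 157 FPKM on days 1 to 3. Glul, which encodes glutamine synthetase, was at 147 FPKM in quiescent cells and 346, 93.9 and 59.7 on those days. Both were highest at day 1. The prostacyclin synthase gene Ptgis went from 154 to 31.9 FPKM, thrombomodulin (Thbd) from 174 to 50.6 and Wnt2 from 36.3 to 10.3. The epidermal genes Sbsn (244 to 69.4 FPKM) and Dmkn (74.6 to 24.7), which neighbour each other on chromosome 7, were lower together at day 2.

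Upward, the homeobox gene Prrx2 of mesenchyme was at 36.1 FPKM in quiescent cells and 28.3, 123 and 120.3 on days 1 to 3. Gpx7, a peroxidase of the endoplasmic reticulum, was at 39.9, 36.0, 157 and 202 FPKM in the same libraries, and Ggt5, an enzyme of glutathione breakdown, at 13.2, 4.05, 27.4 and 46.4. The membrane protein gene Tmem176b was at 23.1, 24.3, 91.0 and 273. Of these genes all but Prrx2 went on to a higher level at day 3. Snord17, a small nucleolar RNA without a poly(A) tail, went from 2.09 to 28.2 FPKM and was at 10.3 at day 4.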
